A study of Mus musculus with 8 samples.

Results

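The 8 genes described here are the mouse globin genes Hba-a1, Hba-a2, Hba-x, Hbb-bs, Hbb-bt, Hbb-y and Hbb-bh1 and the repressor gene Bcl11a, taken by name from the 32285 genes counted. They were followed by droplet sequencing of the 3′ ends of RNA in single cells. The sort gate was Epcr+Lin-Sca-1+Kit+, a surface phenotype of blood stem cells. WT mice at 2 days after birth (P2) gave a bone marrow library, a liver library and a spleen library, with 7 samples merged in each. A pair of Tppp3CreER LSLTdTomato pups, also P2 and given tamoxifen at P0, gave 2 tubes, each a mixture of marrow and spleen. In these pups a tamoxifen-dependent Cre driven from Tppp3 switches on the tdTomato reporter, and each tube joined tdTomato-positive cells of 1 pup with tdTomato-negative cells of the other. WT embryos about 19 days after fertilization (E19) gave 1 library, whose title names bone marrow and whose tissue field names fetal liver. Red cells had been lysed before the sort, and the labels give the WT P2 tissues, the tubes and E19 as 3 separate batches.

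Hemoglobin carries oxygen as a tetramer of alpha-type and beta-type globin chains around heme. In the mouse embryo, primitive red cells from the yolk sac use Hba-x, Hbb-y and Hbb-bh1, and the definitive red cells of fetal liver and adult marrow use Hba-a1, Hba-a2, Hbb-bs and Hbb-bt. Bcl11a, a zinc finger repressor that is also needed for B cell development, silences embryonic beta-type globin genes in definitive red cells, and Klf1, an erythroid zinc finger factor, activates adult beta-globin genes and Bcl11a.

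The cells of each library were split by Klf1: Klf1-positive cells held at least 1 unique molecular identifier (UMI, a tag that counts 1 captured RNA molecule) of Klf1, and Klf1-negative cells held none. Cells kept had at least 1000 genes, at least 2000 UMIs and at most 10% mitochondrial UMIs. Klf1-positive cells made up 799 of 6550 cells (12.2%) in P2 bone marrow, 874 of 5634 (15.5%) in P2 liver and 2214 of 9043 (24.5%) in P2 spleen. They made up 41 of 2722 (1.51%) in tube 1, 168 of 2473 (6.79%) in tube 2 and 1050 of 10725 (9.79%) in E19. Klf1-positive cells were the deeper ones, with library medians of 12805 to 35272.5 UMIs per cell against 5864 to 20073 UMIs in Klf1-negative cells. Between 0 and 34 cell barcodes were shared by any pair of libraries. Other than Klf1, the 14 erythroid markers counted all reached 10 CPM (the UMIs of a gene per 1000000 UMIs of the summed cells) in Klf1-positive cells of every library but tube 1, where 12 did and Car1 was at 0. Their summed level was 5839 to 7578 CPM in Klf1-positive cells of the other 5 libraries and 1599 CPM in those of tube 1, against 548 to 727 CPM in Klf1-negative cells. In tube 1, 38 of the 41 Klf1-positive cells held exactly 1 Klf1 UMI and HSC markers summed to 2680 CPM, so the label of erythroid cells does not hold there. Myeloid progenitor markers summed to 2694 and 2269 CPM in Klf1-positive cells of P2 bone marrow and liver, against 8779 and 11433 CPM in Klf1-negative cells. Neutrophil markers summed to 1908 CPM in Klf1-positive cells of tube 2, against 12034 CPM in Klf1-negative cells. Their part in the results was not tested.

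The beta-type genes lie together on the minus strand of chromosome 7 (mm10, GENCODE vM21), with Hbb-y at chr7:103851749-103853216, Hbb-bh1 at chr7:103841637-103843164, Hbb-bs at chr7:103826534-103828096 and Hbb-bt at chr7:103812524-103813996. The alpha-type genes lie on the plus strand of chromosome 11, with Hba-x at chr11:32276400-32278116, Hba-a1 at chr11:32283511-32284465 and Hba-a2 at chr11:32296489-32297298. Bcl11a is on the plus strand of the same chromosome at chr11:24078056-24174123. All 8 are annotated as protein-coding. The 200 bases before the RefSeq start of 5 globin genes (RefSeq, GRCm38.p6) are shown because adult and embryonic members of each family differ in level below, and capitals mark the letters of the motifs searched on both strands.
Hbb-bs: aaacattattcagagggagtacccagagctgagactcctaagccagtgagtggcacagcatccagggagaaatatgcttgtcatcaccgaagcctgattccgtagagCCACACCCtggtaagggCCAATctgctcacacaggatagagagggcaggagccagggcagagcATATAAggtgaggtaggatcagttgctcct
Hbb-bt: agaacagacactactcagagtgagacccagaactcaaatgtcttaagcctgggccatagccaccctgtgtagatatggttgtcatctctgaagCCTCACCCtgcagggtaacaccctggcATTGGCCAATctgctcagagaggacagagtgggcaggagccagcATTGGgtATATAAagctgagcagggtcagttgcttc
Hbb-y: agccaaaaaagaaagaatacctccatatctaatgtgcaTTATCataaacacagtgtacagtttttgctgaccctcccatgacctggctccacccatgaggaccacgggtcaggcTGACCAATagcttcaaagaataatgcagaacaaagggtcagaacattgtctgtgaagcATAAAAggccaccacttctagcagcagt
Hba-a1: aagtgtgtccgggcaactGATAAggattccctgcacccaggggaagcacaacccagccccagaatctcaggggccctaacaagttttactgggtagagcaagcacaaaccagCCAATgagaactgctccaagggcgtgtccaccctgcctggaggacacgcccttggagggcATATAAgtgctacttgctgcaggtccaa
Hba-x: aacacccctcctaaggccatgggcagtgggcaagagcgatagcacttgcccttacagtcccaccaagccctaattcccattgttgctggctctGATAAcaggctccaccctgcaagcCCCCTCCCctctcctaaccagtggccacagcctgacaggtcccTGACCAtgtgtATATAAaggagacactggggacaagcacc
The windows are chr7:103827929-103828128 for Hbb-bs, chr7:103813924-103814123 for Hbb-bt and chr7:103853208-103853407 for Hbb-y on the minus strand, and chr11:32283472-32283671 for Hba-a1 and chr11:32276400-32276599 for Hba-x on the plus strand. The RefSeq starts lie inside the GENCODE bounds given above. All 5 windows therefore overlap those bounds, and that of Hba-x lies wholly within them. The motifs were CCNCNCCC, the CACC form that Klf1 and related factors bind, CCAAT, the box of that name, GATAA, the core that GATA factors bind, TGACCA, a core described for Bcl11a, and ATANAA, the TATA-type box. They occur in 42.6%, 29.3%, 18.1%, 9.17% and 27.2% of 32851 RefSeq promoter windows of the same length. All 5 windows held ATANAA near the start. CCNCNCCC was in the windows of Hbb-bs, Hbb-bt and Hba-x, and CCAAT in those of Hbb-bs, Hbb-bt, Hbb-y and Hba-a1. In Hbb-bt, CCAAT lay on both strands, 1 pair side by side. GATAA was in the windows of Hbb-y, Hba-a1 and Hba-x. TGACCA was in the windows of the embryonic genes Hbb-y, where it overlaps CCAAT by 3 bases, and Hba-x, and in none of the 3 adult windows shown. Hba-a1 and Hba-a2 windows were 97.0% identical and Hbb-bs and Hbb-bt windows 72.0%. Within the longest coding transcripts, 58.9% of 90-base stretches of Hba-a1 were also in Hba-a2 and 63.3% of those of Hbb-bs in Hbb-bt, so the split of reads between each pair is uncertain. The last 200 bases, at the 3′ end, were 84.7% identical between Hba-a1 and Hba-a2 and 79.4% between Hbb-bs and Hbb-bt. No such stretch of Hbb-bs was in Hbb-y or Hbb-bh1, nor of Hba-a1 in Hba-x.

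Embryonic globin RNA was close to absent from Klf1-positive cells in all 6 libraries, while Hbb-bs alone gave 24638 to 102461 UMIs in all of them but tube 1, where it gave 555. Hbb-y, an embryonic beta-type chain, had 1, 2, 7, 0, 1 and 1 UMIs in Klf1-positive cells of P2 bone marrow, liver, spleen, tube 1, tube 2 and E19. Hbb-bh1, the other embryonic beta-type chain, had 1 UMI in Klf1-positive cells of P2 liver, 4 in those of E19 and 0 in the other 4 libraries. A count of 0 allows up to 0.271 CPM in P2 bone marrow, 0.0894 CPM in P2 spleen, 2.73 CPM in tube 1 and 0.444 CPM in tube 2, from 3 counts over the library's Klf1-positive cells. Hba-x, the embryonic alpha-type chain, had 15, 8 and 10 UMIs in Klf1-positive cells of P2 bone marrow, liver and spleen and 7 in those of tube 2, but 0 in those of tube 1 and E19, where 0 allows up to 0.167 CPM in E19. Of the 15 in bone marrow, 14 came from 1 cell that also held 127 Hbb-bs UMIs.

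As a share of beta-globin UMIs, Hbb-y and Hbb-bh1 together made up 0.00223% in Klf1-positive cells of P2 bone marrow, with an exact 95% binomial interval up to 0.0124%. The share was 0.00840% (up to 0.0246%) in P2 liver, 0.00787% (up to 0.0162%) in P2 spleen and 0.00691% (up to 0.0161%) in E19. These intervals cover counting error only. The 3 P2 intervals overlapped that of E19, which is not a test. With so few embryonic UMIs, no difference between P2 and E19 is read from these shares. In the tubes the share was 0 of 576 beta-globin UMIs in tube 1, which allows up to 0.638%, and 0.000908% in tube 2. The share in Klf1-negative cells was 0.01999%, 0.0328%, 0.0147% and 0.0261% in marrow, liver and spleen of P2 mice and in E19, and lay above that of Klf1-positive cells in 4 of 4 libraries. These Klf1-negative shares rest on 5, 4, 3 and 19 embryonic UMIs. In each of the 4 libraries the exact 95% intervals of the classes overlapped, which is not a test. In E19 they barely did, up to 0.0161% in Klf1-positive and from 0.0157% in Klf1-negative cells. With so few embryonic UMIs no order of the classes is read from them. The difference, Klf1-positive minus Klf1-negative, averaged −0.0170 percentage points ± 0.00738 (SD, n = 4 libraries), and 4 pairs cannot reach an exact permutation p under 0.05. Klf1-negative cells of E19 held 11 Hbb-y UMIs in 10 cells and 8 Hbb-bh1 UMIs in 6 cells. For Hba-x, the share of alpha-globin UMIs in Klf1-positive cells was 0.0788%, 0.0429% and 0.0190% in P2 bone marrow, liver and spleen and 0 in E19. The bone marrow value rests on the 1 cell with 14 of its 15 UMIs, and UMIs of 1 cell are not independent. Hba-x, Hbb-y and Hbb-bh1 did not pass the filter on low counts of the test below, and no order of the libraries is read from these counts. Run without that filter, the edgeR test below gave Hba-x a log2 fold change of 6.06 in Klf1-positive over Klf1-negative cells (adjusted p = 0.000471). It called neither Hbb-y (adjusted p = 0.404) nor Hbb-bh1 (adjusted p = 0.691). The Hba-x call rests on few UMIs, many of them from 1 cell. The theta-type gene Hbq1b, which is no member, had 3.07 to 9.61 CPM in Klf1-positive cells of 5 libraries and 0 in those of tube 1, and Hbb-bh2 had no UMI in any.

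The 4 adult globin genes were higher in Klf1-positive than in Klf1-negative cells of every library. Hbb-bs, an adult beta chain, stood at 3006, 1593, 1881, 504, 15156 and 2424 CPM in Klf1-positive cells of P2 bone marrow, liver, spleen, tube 1, tube 2 and E19, against 255, 174, 212, 8.61, 69.3 and 192 CPM in Klf1-negative cells. In tube 1 a single cell held 383 of the 555 Hbb-bs UMIs of Klf1-positive cells, and 158, or most, of their Hba-a1 UMIs. Outside tube 1, the lowest Klf1-positive value of Hbb-bs was 1593 CPM and the highest Klf1-negative value 255 CPM. How many of all genes are as separate between the classes was not counted. The Klf1-negative sums also rested on few cells: the top 1% of Klf1-negative cells held 85.5%, 48.0%, 75.0% and 82.0% of their Hbb-bs UMIs in marrow, liver and spleen of P2 mice and in E19. Hba-a1, an adult alpha chain, stood at 1303, 943, 1224, 226, 6235 and 2876 CPM in Klf1-positive cells, against 86.2, 70.7, 108, 2.70, 22.7 and 107 CPM in Klf1-negative cells. In tube 1 the Hba-a1 value of Klf1-positive cells rests mostly on that cell. Its near-identical copy Hba-a2 stood at 415, 264, 345, 60.9, 2157 and 929 CPM in Klf1-positive cells, against 42.4, 35.4, 48.6, 2.54, 16.3 and 73.4 CPM in Klf1-negative cells. Here the value of tube 1 Klf1-positive cells, 60.9 CPM, was below the 73.4 CPM of E19 Klf1-negative cells. Hbb-bt, the second adult beta chain, stood at 1048, 715, 770, 19.1, 1135 and 1611 CPM in Klf1-positive cells, against 211, 84.4, 188, 1.23, 10.5 and 873 CPM in Klf1-negative cells. For Hbb-bt the groups overlapped, because Klf1-negative cells of E19 were above Klf1-positive cells of P2 liver, P2 spleen and tube 1.

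**Figure D1:**
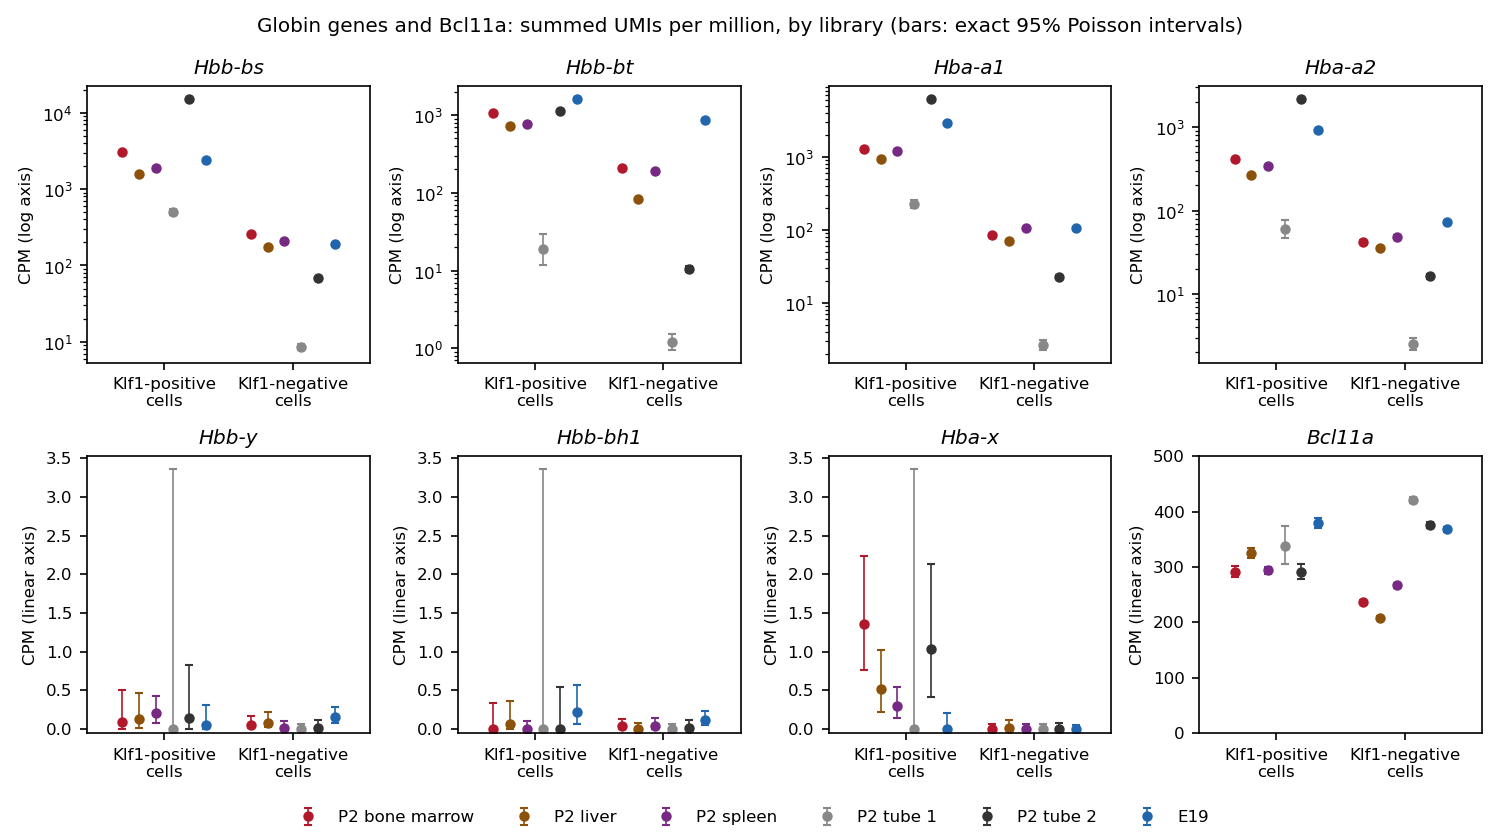
Level of each of the 8 genes in Klf1-positive cells (left in each panel) and Klf1-negative cells (right), in CPM of the summed cells, with 1 point per library and exact 95% Poisson bars. The adult globins, on log axes, are higher in the Klf1-positive cells of every library. Hbb-y, Hbb-bh1 and Hba-x, on linear axes, stay under 2 CPM, and Bcl11a lies between 208 and 421 CPM.

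Summed per library and tested with edgeR's quasi-likelihood test over the 3 WT P2 libraries and E19, with the library as a block, 5 of the 8 genes passed the filter on low counts and all 5 were called higher in Klf1-positive cells at an adjusted p under 0.05. Of all 15463 genes tested, 29.7% were called higher and 34.6% lower, so a call by itself was common. The log2 fold change was 4.26 ± 0.25 (SE) for Hba-a1 (edgeR, adjusted p = 5.17e-05), 3.68 ± 0.14 for Hbb-bs (adjusted p = 2.78e-05) and 3.46 ± 0.18 for Hba-a2 (adjusted p = 4.57e-05). It was 2.37 ± 0.30 for Hbb-bt (edgeR, adjusted p = 0.000566), the smallest of the 4 globins. The median of all genes was −0.06, and −0.35 where libraries were scaled by total UMIs alone. Under that scaling 2786 genes were called higher and 6938 lower in place of 4586 and 5349, and the 4 globins stayed higher. The labels do not say whether the WT P2 libraries came from the same mice, so these p-values measure only the spread between libraries. Removing the cells with the highest doublet scores moved Hbb-bs to 4.29, and adding both tubes moved it to 4.58 and Hbb-bt to 3.15.

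Adult globin content per cell was higher where the Klf1 count was higher. After every cell was thinned to 5000 UMIs, the mean Hbb-bs count per cell in P2 bone marrow was 1.19 with 0 Klf1 UMIs, 13.6 with 1, 29.0 with 2 to 4 and 83.8 with 5 or more. The same steps gave 1.12, 8.26, 21.3 and 74.9 in P2 liver, 1.77, 10.8, 26.8 and 48.1 in P2 spleen, and 1.08, 14.7, 22.1 and 61.4 in E19. The mean was higher at each step in all 4 libraries, although only 11, 7, 19 and 15 cells of P2 marrow, liver and spleen and of E19 reached 5 Klf1 UMIs at that depth. At 5000 UMIs, 45.1%, 49.3%, 50.3% and 50.5% of Klf1-positive cells of P2 marrow, liver and spleen and of E19 held an Hbb-bs UMI, against 10.6%, 15.8%, 17.8% and 16.1% of Klf1-negative cells. Without thinning the shares in Klf1-positive cells were 62.2%, 62.8%, 68.7% and 69.0%.

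**Figure D2:**
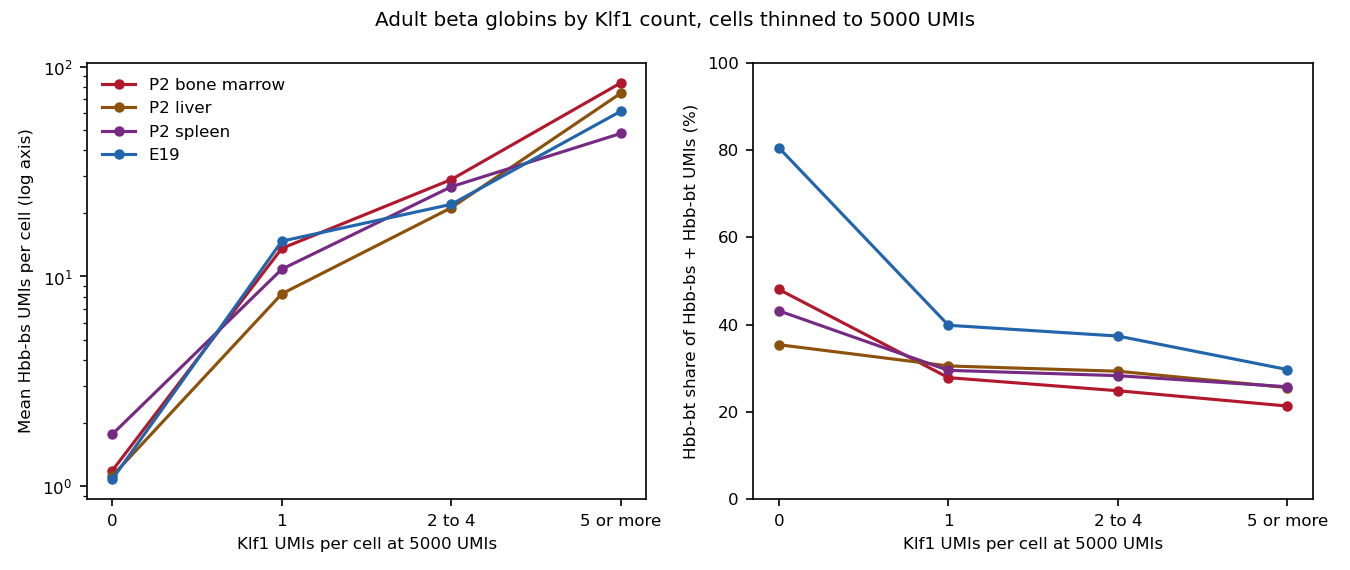
Adult beta globins by the number of Klf1 UMIs in cells thinned to 5000 UMIs, 1 line for each WT P2 library and E19. Left, mean Hbb-bs UMIs per cell on a log axis, from about 1 in cells without Klf1 to 48.1 to 83.8 at 5 or more Klf1 UMIs. Right, the share of Hbb-bt among Hbb-bs and Hbb-bt UMIs, which is highest in cells with 0 Klf1 UMIs and, in E19, stands at 80.6% there.

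The make-up of adult hemoglobin RNA also differed. Hbb-bt took 25.8%, 31.0%, 29.0% and 39.9% of Hbb-bs and Hbb-bt UMIs in Klf1-positive cells of P2 marrow, liver and spleen and of E19, against 45.3%, 32.7%, 47.1% and 82.0% in Klf1-negative cells. It took 3.65% and 6.96% in Klf1-positive cells of tubes 1 and 2, against 12.5% and 13.1% in Klf1-negative cells. The share was lower in Klf1-positive cells in 6 of 6 libraries, but both tubes came from the same pups and were averaged into 1 unit for the test. The WT P2 libraries stayed separate units, although they may come from the same mice. The units are therefore not known to be independent animals, and the p-values of this paragraph measure only the spread between libraries. The mean difference was −17.8 percentage points ± 15.5 (SD, n = 5 units; 2-sided exact permutation test over pairs, p = 0.0625, the smallest 5 pairs allow). The difference ranged over the libraries from −42.1 points in E19 to −1.69 in P2 liver. Both tubes lay far below the other 4 libraries in both classes of cells. They differ from them in genotype, tamoxifen, batch, mixed tissue and Cell Ranger version, which cannot be told apart, and the labels do not give the pups' strain background. Hba-a2 took 24.1%, 21.9%, 22.0%, 21.2%, 25.7% and 24.4% of adult alpha UMIs in Klf1-positive cells of P2 bone marrow, liver, spleen, tube 1, tube 2 and E19, against 33.0%, 33.4%, 31.1%, 48.5%, 41.7% and 40.7% in Klf1-negative cells. Unlike Hbb-bt, Hba-a2 held nearly the same share in the Klf1-positive cells of all 6 libraries. The share was lower in Klf1-positive cells in 6 of 6 libraries, with a mean difference of −13.5 points ± 5.47 (SD, n = 5 units; exact permutation p = 0.0625). Klf1-positive cells held 0.424, 0.523, 0.592, 0.549, 0.515 and 0.943 alpha UMIs per beta UMI, against 0.276, 0.411, 0.391, 0.533, 0.488 and 0.169 in Klf1-negative cells. The ratio was higher in Klf1-positive cells in 6 of 6 libraries, by 0.251 ± 0.299 on average (SD, n = 5 units; exact permutation p = 0.0625), and E19 had the highest value in Klf1-positive and the lowest in Klf1-negative cells. These 3 quantities and the embryonic share form a family of 4, for which the Benjamini-Hochberg adjusted p was 0.0625 each by the exact permutation test over 5 units. No difference of this family can fall under 0.05 with 5 units.

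Between ages, Klf1-positive cells of the 3 WT P2 tissues held less adult alpha globin than those of E19. The tubes, also P2, did not share 1 direction. Klf1-positive cells of tube 2 held 6235 CPM of Hba-a1 and 2157 CPM of Hba-a2, above the 2876 and 929 CPM of E19. Those of tube 1 held 226 and 60.9 CPM. With 1 library per group these are differences between libraries with no test. Among genes at 20 CPM or more, 2.19%, 2.51% and 3.49% were at least 2-fold lower and 2.42%, 2.05% and 1.34% at least 2-fold higher in P2 bone marrow, liver and spleen over E19. Hba-a1 stood at 0.453, 0.328 and 0.425 times its E19 level in P2 bone marrow, liver and spleen, and Hba-a2 at 0.446, 0.284 and 0.372 times. Both were thus past 2-fold lower in all 3 tissues. Hbb-bt was at 0.650, 0.444 and 0.478 times its E19 level, past 2-fold in liver and spleen. Hbb-bs was at 1.24, 0.657 and 0.776 times and Bcl11a at 0.768, 0.859 and 0.775 times, both within 2-fold. The 3 comparisons share the E19 library, and batch, age and tissue cannot be told apart. In these sums, fewer globin-rich cells and less globin RNA per cell cannot be told apart either.

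Hbb-bt had a second pattern, in cells without Klf1. Klf1-negative cells were sorted into classes by the marker list of which they held most genes, at least 3. HSC-marker cells, with genes such as Mecom, Hlf and Procr, numbered 1871, 224, 1970, 1675 and 8810 in P2 bone marrow, liver, spleen, tube 2 and E19. B cell-marker cells, with genes such as Cd79a and Ebf1, which should lack globin RNA of their own and so show free RNA and doublets, numbered 1106, 1585, 1804, 97 and 154. Their level need not be that of other classes. In P2 liver cells thinned to 5000 UMIs, 19.8% of myeloid progenitor-marker cells held an Hba-a1 UMI, against 2.71% of B cell-marker cells. In P2 bone marrow the order was the other way, 2.79% against 3.87%. Hbb-bt stood at 433, 356 and 350 CPM in HSC-marker cells of P2 bone marrow, liver and spleen and at 899 CPM in those of E19, against 51.6, 19.4, 37.5 and 197 CPM in B cell-marker cells. In tube 2 it stood at 6.37 CPM in HSC-marker cells, against 10.0 CPM in B cell-marker cells, which held 11 Hbb-bt UMIs. HSC-marker cells of tube 1 stood at 1.19 CPM. Hbb-bs had the opposite order in these 4 libraries. It stood at 68.1, 14.9, 71.8 and 117 CPM in HSC-marker cells of P2 marrow, liver and spleen and of E19, against 111, 61.5, 83.9 and 299 CPM in B cell-marker cells.

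In a comparison added after those levels had been seen, edgeR called Hbb-bt higher in HSC-marker than in B cell-marker cells of the 4 libraries, with a log2 fold change of 2.95 ± 0.30 (SE, adjusted p = 0.000648). Of 12882 genes tested, 21.7% were called higher and 17.5% lower. Hbb-bs fell by 1.22 ± 0.26 on the log2 scale (adjusted p = 0.0118), Hba-a1 by 1.17 ± 0.18 (adjusted p = 0.00333) and Hba-a2 by 1.20 ± 0.20 (adjusted p = 0.00399). These 3 calls ended without the cells of highest doublet score (adjusted p = 0.218, 0.198 and 0.0619) and without the library block (adjusted p = 0.166, 0.286 and 0.273), where the log2 fold changes were −1.17, −1.02 and −1.08. Hbb-bt kept its call in both settings, at 4.05 and 2.60. With libraries scaled by total UMIs alone, the median of all genes moved to 0.20 and 3884 genes were called higher and 1301 lower in place of 2789 and 2255, with Hbb-bt at 3.16. Without P2 bone marrow 2005 and 1242 genes were called higher and lower, and without P2 liver 1793 and 1241.

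Among cells thinned to 5000 UMIs, 57.0%, 54.2%, 55.4% and 73.6% of HSC-marker cells of P2 marrow, liver and spleen and of E19 held an Hbb-bt UMI, against 5.81%, 2.54%, 7.49% and 25.2% of B cell-marker cells. The cells deep enough to thin numbered 1261, 203, 1454 and 6435 HSC-marker cells and 568, 591, 427 and 107 B cell-marker cells. Their median depths before thinning were 7550, 9331, 7685.5 and 7136 UMIs in HSC-marker cells and 8186, 8808, 6622 and 10211 UMIs in B cell-marker cells. In the tubes the share was 0.817% and 3.07% of HSC-marker cells. For Hbb-bs the shares were 10.9%, 7.39%, 15.7% and 16.0% of HSC-marker cells, against 7.39%, 4.57%, 15.7% and 17.8% of B cell-marker cells. HSC-marker cells were above in P2 marrow and liver but below on the CPM scale, so no order is read from these shares. Hbb-bt UMIs were spread over many HSC-marker cells: the top 1% of cells held 9.0%, 5.74%, 8.23% and 8.81% of them in marrow, liver and spleen of P2 mice and in E19. The top 1% of B cell-marker cells held 76.5%, 76.9%, 58.2% and 62.9% of theirs.

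Hbb-bt took 86.4%, 96.0%, 82.98% and 88.5% of adult beta UMIs in HSC-marker cells of P2 marrow, liver and spleen and of E19, against 31.6%, 24.0%, 30.9% and 39.7% in B cell-marker cells and the 25.8% to 39.9% of Klf1-positive cells. A high share was not particular to HSC-marker cells in E19. In the same 4 libraries it was 52.0%, 29.6%, 42.0% and 80.2% in myeloid progenitor-marker cells. Dendritic cell-marker cells had 47.3%, 28.1%, 53.2% and 85.9%. The E19 values of these 2 classes rest on 222 and 128 adult beta UMIs. Hbb-bt and Hbb-bs were therefore not in 1 ratio across the cell classes of these 4 libraries. In tubes 1 and 2 the Hbb-bt share of HSC-marker cells was lower, at 12.2% and 12.7%. It still lay above the 3.65% and 6.96% of Klf1-positive cells of the same tubes. B cell-marker cells of tube 2 had 17.7%, from 62 adult beta UMIs. How Hbb-bt reads were split from those of Hbb-bs by the counting was not tested.

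**Figure D3:**
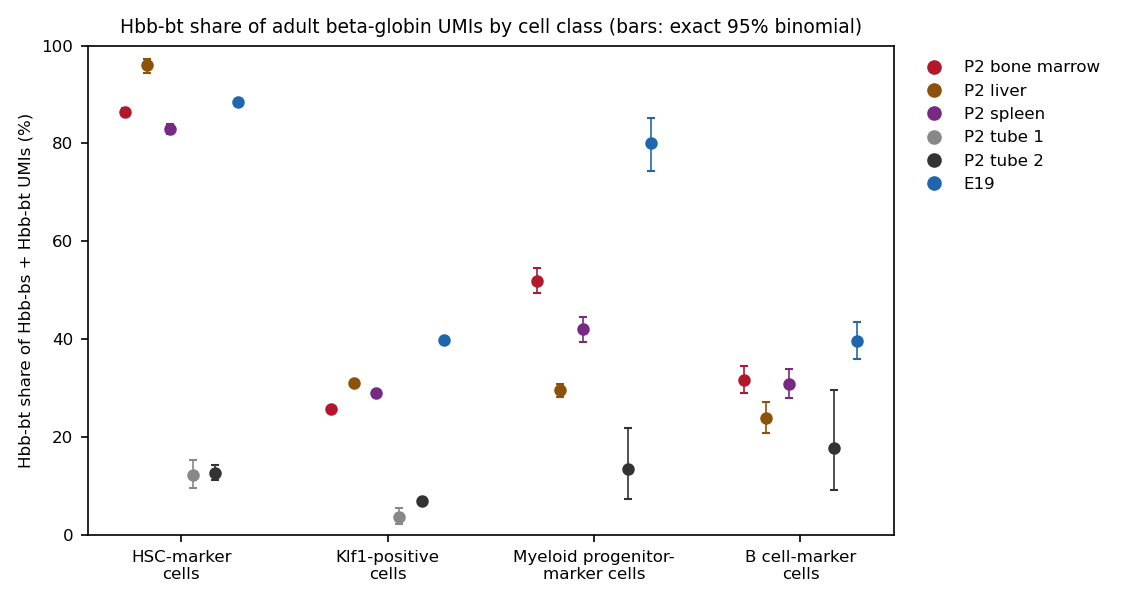
Share of Hbb-bt among Hbb-bs and Hbb-bt UMIs, in percent, by cell class and library, with exact 95% binomial bars, for classes of at least 20 cells. HSC-marker cells of the 3 pooled P2 tissues and E19 sit between 82.98% and 96.0%, and both tubes lie near 12%. Klf1-positive and B cell-marker cells of the same 4 libraries sit between 24.0% and 39.9%. Myeloid progenitor-marker cells of these libraries range from 29.6% in P2 liver to 80.2% in E19.

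Bcl11a stood at 292, 326, 294, 339, 292 and 379 CPM in Klf1-positive cells of P2 bone marrow, liver, spleen, tube 1, tube 2 and E19, against 237, 208, 267, 421, 377 and 368 CPM in Klf1-negative cells. The groups overlapped, and both tubes went the other way from the 4 remaining libraries. The edgeR log2 fold change over the 4 libraries was 0.57 ± 0.10 (SE, adjusted p = 0.00261). The call ended with total UMIs as the only scaling (0.28, adjusted p = 0.0626) and with both tubes added (0.32, adjusted p = 0.0929). At 5000 UMIs, 73.4%, 68.2%, 67.5% and 77.2% of Klf1-positive cells of P2 marrow, liver and spleen and of E19 held a Bcl11a UMI, against 59.8%, 45.5%, 61.6% and 77.2% of Klf1-negative cells.

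By marker class, Bcl11a levels reached highest in B cell-marker and HSC-marker cells, at 375 to 502 CPM and 366 to 495 CPM over the libraries. Klf1-positive cells followed at 292 to 379 CPM, together with Klf1-negative cells that carried erythroid markers at 277 to 389 CPM. Dendritic cell-marker cells had 219 to 384 CPM, and the ranges of these 5 classes overlapped. Myeloid progenitor-marker cells, with genes such as Mpo and Elane, stood apart at 71.5 to 135 CPM, as did cells with T, NK and innate lymphoid markers at 24.9 to 34.8 CPM and the neutrophil-marker cells of tube 2 at 31.6 CPM. Over the 4 libraries, edgeR gave a log2 fold change of −0.31 ± 0.10 (SE) in HSC-marker over B cell-marker cells (adjusted p = 0.0489). That call did not hold when any 1 of the 4 libraries was left out (−0.40 to −0.19, adjusted p = 0.0890 to 0.145), nor with DESeq2, other scalings, no filter or no library block (−0.32 to −0.10, adjusted p = 0.0559 to 0.448). It held with tube 2 added (adjusted p = 0.0214) and with the cells of highest doublet score removed (adjusted p = 0.0459).

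**Figure D4:**
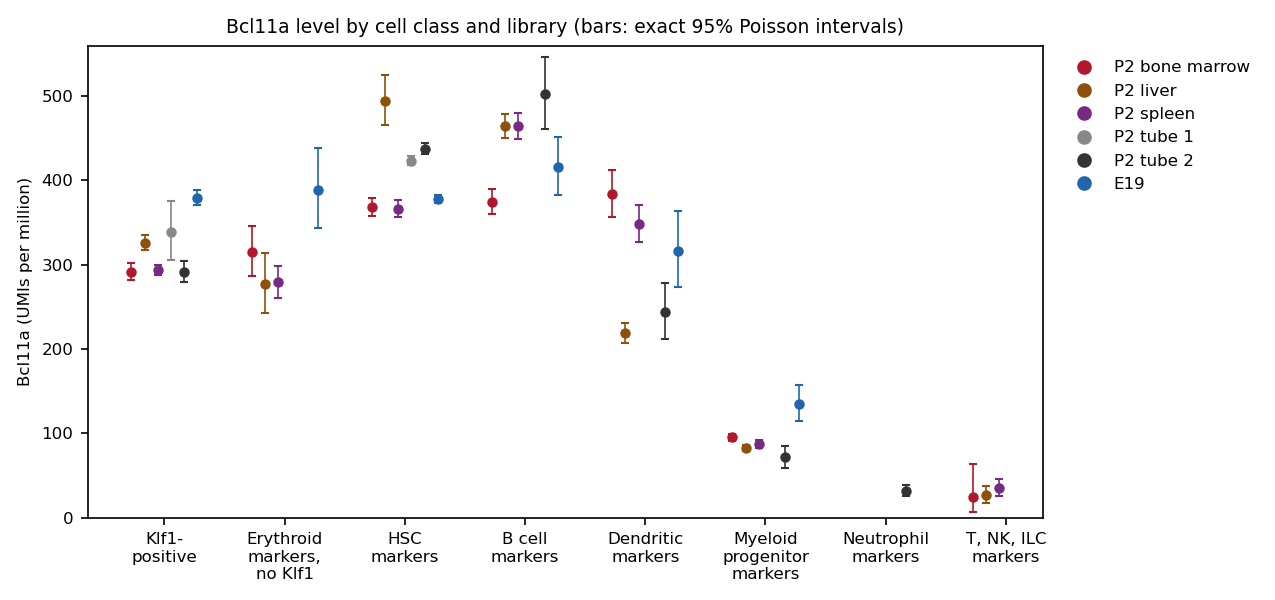
Bcl11a level in CPM by cell class, 1 point per library with exact 95% Poisson bars, for classes of at least 20 cells. B cell-marker and HSC-marker cells lie between 366 and 502 CPM, myeloid progenitor-marker cells between 71.5 and 135 CPM and T, NK and innate lymphoid-marker cells under 35 CPM.

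Within Klf1-positive cells, Bcl11a was lower in the cells richest in adult globin than in cells with none. Cells with 0, 1 to 9, 10 to 99 and 100 or more adult globin UMIs per 5000 had 312, 334, 252 and 174 CPM of Bcl11a in P2 bone marrow. The same classes had 409, 274, 203 and 162 CPM in P2 liver, 335, 319, 201 and 131 CPM in P2 spleen, and 341, 417, 358 and 243 CPM in E19. In all 4 libraries the cells with 100 or more globin UMIs were lowest, and in P2 liver and spleen the level was lower at each step. Tube 2 gave 346, 438, 271 and 171 CPM, the first from 37 cells. These are sums over cells of 1 library each, so they carry counting error and no test. Cells with 0 globin UMIs also held less Klf1, on average 0.867, 0.857, 0.977 and 0.806 UMIs in P2 marrow, liver, spleen and E19. Cells with 100 or more held 1.86, 2.11, 2.035 and 1.73. The cell types that make up each globin class may differ, which was not tested. Set the other way, Klf1-positive cells without a Bcl11a UMI at 5000 UMIs averaged 56.4, 41.8, 59.6 and 87.5 adult globin UMIs in marrow, liver and spleen of P2 mice and in E19, against 24.8, 14.1, 20.3 and 35.8 in those with one. Embryonic beta-type UMIs were too few for a comparison, with 0, 1, 1 and 0 in cells without a Bcl11a UMI and 0, 0, 5 and 2 in cells with one.

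**Figure D5:**
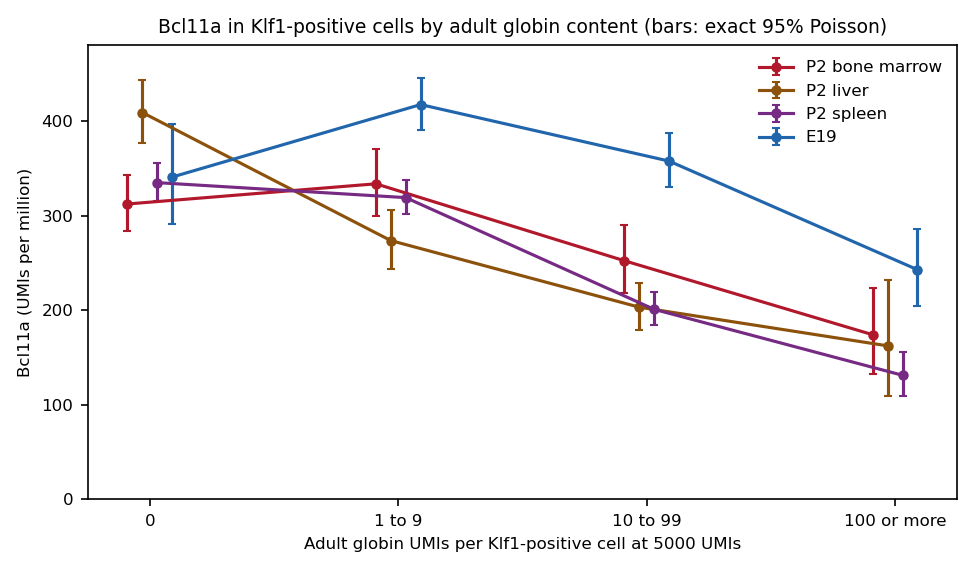
Bcl11a level in CPM in Klf1-positive cells, by adult globin UMIs per cell after thinning to 5000 UMIs, 1 line for each WT P2 library and E19 with exact 95% Poisson bars. The cells with 100 or more globin UMIs have 131 to 243 CPM, below the 312 to 409 CPM of cells with none in the same libraries.

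Genes of the same pathways were read in the same Klf1-positive over Klf1-negative test, where the median of all genes was −0.06 and 29.7% of all genes were called higher and 34.6% lower. Of 13 heme synthesis genes, 12 were called higher, among them Cpox (4.38 ± 0.26) and Alad (3.69 ± 0.16), and Alas1, the housekeeping form of the first enzyme, was lower (−1.63 ± 0.27), with a list median of 3.08. All 12 red cell membrane genes were called higher, led by Add2 (5.90 ± 0.29) and Ermap (5.75 ± 0.29), with a median of 5.27. Of 12 locus control and erythroid factors, 8 were called higher, among them Gata1 (4.59 ± 0.34) and Zfpm1 (2.25 ± 0.13), and Cbfa2t3 was lower (−0.52 ± 0.14), with a median of 0.73. Of the 5 chaperone and redox genes tested, 3 were called higher, led by Blvrb (4.65 ± 0.26) and Prdx2 (2.42 ± 0.11), with a median of 0.63. Of 25 globin switching factors, Bcl11a included, 12 were called higher and 5 lower, with a median of 0.22. Sox6, a partner of Bcl11a in silencing embryonic globin, had 4.83 ± 0.28 and Nfia, an erythroid regulator, 3.86 ± 0.21. Igf2bp2 and Igf2bp1, RNA-binding proteins, had −2.30 ± 0.20 and −1.58 ± 0.54. Igf2bp1 was under 1 CPM in both classes of P2 marrow, liver and spleen, so its value rests mostly on E19. There it stood at 12.9 CPM in Klf1-positive and 33.4 CPM in Klf1-negative cells. With total UMIs as the only scaling the switching factors split into 6 higher and 9 lower, and Dnmt1, a DNA methyltransferase, changed sign. The locus control and erythroid factors then split into 6 higher and 2 lower and lost Lmo2 and Mafk, and Slc25a39 of the chaperone and redox genes lost its call.

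Over 32 sums of library and cell class, the genes most like Bcl11a in log2(CPM + 1), among 9017 genes, were Usp6nl (Pearson r = 0.903), Prdx4 (r = 0.891), Immp2l (r = 0.806), Cnn3 (r = 0.805) and Ptk2 (r = 0.793). Among those most like Hbb-bs were Hba-a1 (r = 0.990), Hba-a2 (r = 0.986), Slc4a1 (r = 0.954) and Epb42 (r = 0.949). The 5 most like Hbb-bt were less close, Isca1 (r = 0.827), Hba-a2 and Hba-a1 (r = 0.826 each), Smim1 (r = 0.816) and Cntn3 (r = 0.814). The sums share libraries and depth, so these are descriptions.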

How the data were processed

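The deposited matrices hold unnormalized UMI counts for each gene and barcode. Per the file headers, Cell Ranger wrote the WT P2 matrices in version 7.0.0, E19 in 7.1.0 and both tubes in 8.0.1, while only 7.0.0, with mm10, is listed in the submitters' processing notes. Barcodes numbered 2838 to 11323 per library, with 56010320 to 87254828 UMIs. The 2 hashtag samples were not used. Doublets were kept, and removed in an alternative (the highest Scrublet scores, scanpy 1.11.5, 0.8% per 1000 barcodes). Thinning drew 5000 UMIs per cell (seed 1), leaving out 69 to 2888 shallower cells per library. CPM values carry exact 95% Poisson and shares exact 95% binomial intervals (scipy 1.17.1), which cover counting error only.

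UMI counts summed per library and class, without Klf1, were tested with edgeR's quasi-likelihood test (version 4.0.16; R 4.3.3), using TMM scaling, filterByExpr, the library as a block and a Benjamini-Hochberg threshold of 0.05. The SE given with each edgeR log2 fold change was derived from the test: the absolute log2 fold change over the square root of its F statistic. DESeq2 1.42.0 was an alternative. On simulated data for Klf1-positive over Klf1-negative cells (15964 genes), all 100 planted 2-fold and 100 planted 4-fold changes were recovered with 9 false calls. For HSC-marker over B cell-marker cells (13083 genes), 92 and 100 were recovered with 11 false calls. Only these genes were changed, evenly up and down, with a fixed spread between sums. In the data 29.7% of genes were called higher and 34.6% lower in Klf1-positive cells. The simulations therefore do not show how well the test does where so many genes change. The pairing is by library: both classes come from the same cells' pool. All 8 members are named, and of each list the largest changes in each direction. Members and lists were chosen with earlier results of these data known. The comparison of HSC-marker with B cell-marker cells and its alternatives, the tests of the Hbb-bt, Hba-a2 and alpha per beta values, Bcl11a by globin content and the likeness for Hbb-bt were chosen after seeing the data. For Hbb-bh1 no RefSeq promoter was used here, and Ahsp of the chaperone list was not tested.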

Additional observations from a re-analysis of the deposited data

Results flagged for a closer look

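Hbb-bt in HSC-marker over B cell-marker cells ran in opposite directions between libraries. The log2 ratio of CPM was −0.66 in tube 2 (exact 95% interval −1.52 to 0.36, with 248 UMIs in HSC-marker cells and 11 in B cell-marker cells), against 3.07, 4.20 and 3.22 in P2 bone marrow, liver and spleen and 2.19 in E19. The difference between tube 2 and the other libraries was not tested, and the interval for tube 2 includes 0. Genotype, tamoxifen, batch, mixed tissue and Cell Ranger version differ between the tubes and the other libraries and cannot be told apart, and the pups' strain background is not given in the labels.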

How the results depend on the processing

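The 4 adult globins kept their direction and calls in Klf1-positive over Klf1-negative cells under every alternative run. Genes called higher numbered 4586, and 2786 with total UMIs only; leaving out 1 library gave 3297 to 4730 higher and 4285 to 5435 lower. Without the replicate block, the library, 3514 were called higher and 3844 lower, and for HSC-marker over B cell-marker cells 2580 and 1916. In HSC-marker over B cell-marker cells, leaving out 1 library gave 1793 to 2871 higher and 1241 to 2305 lower, and total UMIs only gave 1301 lower. Bcl11a lost its call with total UMIs only and with 6 libraries.

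The counts past 2-fold over E19 moved with the minimum level. At 50 CPM, 80, 79 and 47 genes were higher and 73, 80 and 109 lower in P2 bone marrow, liver and spleen, and at 5 CPM 403, 363 and 220 were higher and 413, 473 and 647 lower, in place of 158, 132 and 85 higher and 143, 162 and 222 lower. The embryonic beta-globin share in Klf1-positive cells was 0% in P2 bone marrow after thinning, and 0.0248% in P2 spleen as a mean of per-cell shares. The Hbb-bt share in HSC-marker cells was 83.4%, 85.0% and 89.2% in P2 bone marrow, spleen and E19 after thinning, and 94.5%, 91.0% and 95.9% in cells under 10 Hbb-bs and Hba-a1 UMIs, where leaving out cells rich in Hbb-bs raises the share by construction. It was 94.9% in E19 with doublets removed and 84.1% in P2 spleen with at least 5 HSC markers. Member levels left the counting interval of the reported value in 140 alternatives and stayed in it in 148 for Klf1-positive cells, and in 82 and 206 for Klf1-negative cells. Depth limits the embryonic genes, which had at most 15 UMIs per library in Klf1-positive cells.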
